A study of Saccharomyces cerevisiae with 6 samples.

Results

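PCK1, FBP1, ICL1, MLS1, MDH2, ACS1, ADH2, SFC1, IDP2 and JEN1 are yeast genes for gluconeogenesis, the glyoxylate cycle and the use of ethanol, acetate and lactate. They were found by their gene symbol in the annotation deposited with the chip, and each had 1 probe set, so that all 10 were measured among the 5726 Saccharomyces cerevisiae genes tested. They were read here as genes that glucose represses, in log phase cultures of control cells and of cells that overexpress the translation elongation factor eEF1A.

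In yeast fed on glucose these genes are held down by the Mig1 repressor and by loss of the activators Cat8 and Adr1. Held down does not mean silent here. The mean log2 control signal was 11.98 for MDH2, 8.28 for ACS1 and 8.10 for ICL1, above the background level of 5.18 set below. The Snf1 kinase switches on Cat8 and Adr1 when glucose runs out. The products of the repressed genes then let the cell make sugar from compounds with few carbons. ADH2 and ACS1 turn ethanol and acetate towards acetyl-CoA, ICL1 and MLS1 build C4 acids from it in the glyoxylate cycle, and MDH2, PCK1 and FBP1 carry these acids back towards glucose.

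The study asked how eEF1A overexpression alters gene expression during log phase growth, on Affymetrix Yeast 2.0 arrays with 1 RNA sample each. The control group was 4 arrays (replicates 1 to 4) of wild-type yeast with an empty multi-copy (2 micron) LEU2 plasmid. The eEF1A group was 2 arrays (replicates 2 and 3) of yeast with such a plasmid carrying TEF1, which by the methods was driven by the strong constitutive GPD promoter. All cultures were grown in SC medium without leucine at 30°C from an optical density of 0.1 to 0.7. The labels call the control cells normal and the eEF1A cells enlarged in size. They name no transformant, growth rate or glucose level at harvest. Nothing in them says that replicates were separate cultures, although the methods speak of biological triplicates, so the p-values measure the spread between these arrays only.

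Values are log2 signals after RMA, the normalization the authors used, and a difference of 1 is a 2-fold change. A gene was called higher or lower in eEF1A cells where limma gave a Benjamini-Hochberg adjusted p under 0.05 over all 5726 genes. A background level of 5.18 was set at the signal below which 95% of the chip's 5028 Schizosaccharomyces pombe probe sets lie, as RNA of that yeast was not applied. Signals of different probe sets are not set against each other as amounts of RNA.

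Some features of the arrays bear on every comparison below. All 7 a-cell marker genes were lower in the eEF1A group, with a median difference of -4.79, and all 4 alpha-cell markers were higher, with a median of 5.89. The groups thus differed in mating type as well as in plasmid, and their shares in any difference cannot be told apart. TEF1 and TEF2 share a probe set that read 14.49 ± 0.01 (SD, n = 4) in control and 14.50 ± 0.01 (SD, n = 2) in eEF1A cells, which gives no check of the labels, and LEU2, carried by both plasmids, read 14.36 ± 0.02 and 14.42 ± 0.01. On eEF1A replicate 2 the AFFX-CreX-3 hybridisation control read 11.81, against 13.47 to 13.63 on the other 5 arrays, while another probe set for the same control, AFFX-r2-P1-cre-3, read 13.82 there and 13.77 to 13.90 on the others. The 3 prime minus 5 prime difference of the TDH1 probe sets was 1.46 to 1.67 in control and 0.49 and 1.03 in eEF1A samples, while that of ACT1 was 0.62 to 0.76 on all 6. Their part in the results was not tested.

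eEF1A cells did not show a general rise of the glucose-repressed genes. Of the 10 genes, 1 rose (ACS1), 4 fell (FBP1, ICL1, MDH2 and ADH2) and 5 did not pass the test. Among all genes 27.5% were higher and 15.4% lower, so that 1 of 10 stood below the first share and 4 of 10 above the second. The difference was below 0 for 9 of the 10 genes, and its median over them was -0.30, against 0.04 over all genes. Both eEF1A arrays lay outside the range of the 4 controls for 6 of the 10, beside 57.2% of all genes. No member passed the B-statistic of 1.5 that the methods used as a threshold, which 8.59% of all genes did. All 10 genes read above background on all 4 control arrays. The falls were small, as the largest fold among the called genes with an eEF1A mean above background was 1.64 (ICL1).

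**Figure D1:**
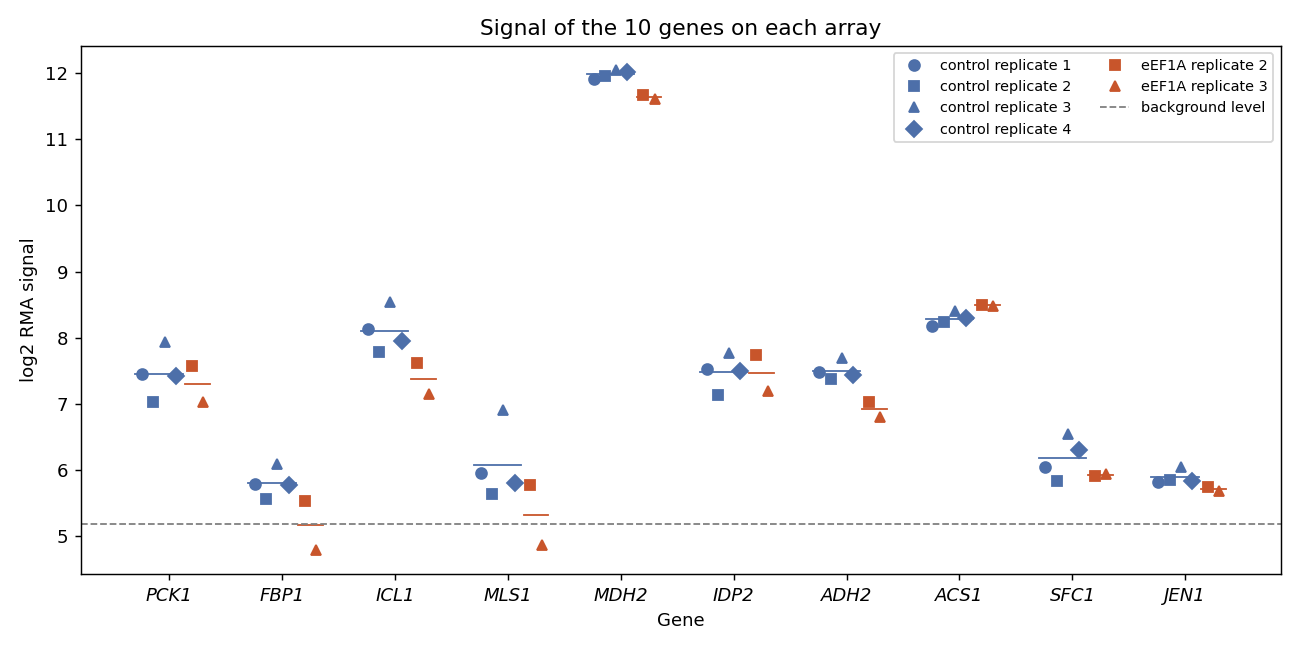
Log2 RMA signal (vertical axis) of each of the 10 genes (horizontal axis) on the 4 control arrays (blue) and the 2 eEF1A arrays (orange), with 1 marker for each replicate number, short lines for the group means and a dashed line for the background level of 5.18. Control replicate 3 (blue triangle) is the highest control for all 10 genes, and the eEF1A arrays lie outside the control range for FBP1, ICL1, MDH2, ADH2, ACS1 and JEN1.

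PCK1 encodes phosphoenolpyruvate carboxykinase, which turns oxaloacetate into phosphoenolpyruvate in the first committed step of gluconeogenesis (YKR097W, chr11:630782-632431, plus strand, in the October 2003 SGD build of the chip annotation). Its signal was 7.45, 7.04, 7.94 and 7.42 on control replicates 1 to 4 and 7.57 and 7.03 on eEF1A replicates 2 and 3. The groups overlapped, with one eEF1A array well inside the control range and the other just at its lower end. The difference was -0.16 ± 0.23 (SE), with an adjusted p of 0.613 from limma and a 95% interval from -0.69 to 0.37. Changes of PCK1 within this interval, in either direction, were therefore not excluded by these arrays.

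FBP1 encodes fructose-1,6-bisphosphatase, the enzyme that opposes phosphofructokinase near the end of gluconeogenesis (YLR377C, chr12:873745-874791, minus strand). It read 5.78, 5.56, 6.09 and 5.78 in control cells, then 5.54 and 4.79 in eEF1A cells. The eEF1A arrays were the lower ones, but replicate 2 lay only just under control replicate 2, and replicate 3 was under the background level, as was the group mean of 5.16. The difference was -0.64 ± 0.20 (SE, adjusted p = 0.0354 from limma), a size that the background limits. The call was lost without control replicate 1, 3 or 4 (adjusted p = 0.0660, 0.0769 and 0.0572) and without eEF1A replicate 3, where the difference was -0.26 (adjusted p = 0.244 from limma).

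ICL1 encodes isocitrate lyase, which splits isocitrate into glyoxylate and succinate and is the entry to the glyoxylate cycle (YER065C, chr5:285239-286912, minus strand). The control arrays read 8.13, 7.78, 8.54 and 7.95 and the eEF1A arrays 7.61 and 7.15. Both eEF1A values were under the lowest control, although the controls themselves spanned 1.69-fold. ICL1 fell by 0.72 ± 0.20 (SE) on the log2 scale, or 1.64-fold (adjusted p = 0.0225 from limma). Without eEF1A replicate 3 the difference was -0.49 and did not pass (adjusted p = 0.145 from limma).

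MLS1 encodes malate synthase, the second enzyme particular to the glyoxylate cycle, which joins glyoxylate and acetyl-CoA into malate (YNL117W, chr14:406355-408019, plus strand). Its control signals were 5.95, 5.63, 6.90 and 5.80, and its eEF1A signals 5.77 and 4.87. MLS1 had the widest control spread of the 10 genes, 2.41-fold from the lowest to the highest array, and eEF1A replicate 2 lay within it. The eEF1A value of replicate 3 was under the background level. The difference of -0.75 ± 0.36 (SE) was the largest of the 10 in size but missed the threshold (limma, adjusted p = 0.127). It rested on single arrays, as it was -0.30 without eEF1A replicate 3, -1.20 without eEF1A replicate 2 and -0.48 without control replicate 3. In that last setting ICL1 (-0.57), FBP1 (-0.54) and ADH2 (-0.52) were larger in size.

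MDH2 encodes the cytosolic malate dehydrogenase, which supplies oxaloacetate for PCK1 (YOL126C, chr15:81786-83057, minus strand). Its signals were 11.92, 11.95, 12.05 and 12.02 in control and 11.66 and 11.62 in eEF1A cells. MDH2 lay far above background on all 6 arrays, and the groups stood clear of each other. It fell by 0.34 ± 0.06 (SE), or 1.27-fold (adjusted p = 0.00194 from limma). The call held under each of 16 other settings of the same test, among them each array left out in turn.

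IDP2 encodes the cytosolic NADP-dependent isocitrate dehydrogenase, a source of NADPH during growth on nonfermentable carbon (YLR174W, chr12:504593-505831, plus strand). It read 7.52, 7.14, 7.77 and 7.50 in control and 7.75 and 7.20 in eEF1A cells. Both eEF1A values lay inside the control range. The difference was -0.01 ± 0.19 (SE, adjusted p = 0.980 from limma), with a 95% interval from -0.44 to 0.42.

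SFC1 encodes the mitochondrial carrier that exchanges cytosolic succinate, made by ICL1, for fumarate (YJR095W, chr10:609470-610438, plus strand). The control values were 6.05, 5.83, 6.55 and 6.30 and the eEF1A values 5.91 and 5.94. Control replicate 2 was lower than either eEF1A array, so the groups overlapped. The difference was -0.25 ± 0.17 (SE, adjusted p = 0.266 from limma).

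ADH2 encodes the alcohol dehydrogenase that oxidises ethanol to acetaldehyde (YMR303C, chr13:873291-874337, minus strand). Control arrays read 7.49, 7.37, 7.69 and 7.43, and eEF1A arrays 7.03 and 6.80. Both eEF1A arrays lay under every control. ADH2 fell by 0.58 ± 0.10 (SE), or 1.49-fold (adjusted p = 0.00239 from limma), a call that held under all 16 other settings. The lowest of its differences in size among them was -0.46.

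ACS1 encodes the acetyl-CoA synthetase that glucose represses, which activates acetate (YAL054C, chr1:42881-45022, minus strand). The signals were 8.18, 8.24, 8.41 and 8.30 in control and 8.49 and 8.49 in eEF1A cells. ACS1 was the only one of the 10 genes with both eEF1A arrays above the controls. It rose by 0.21 ± 0.07 (SE), or 1.16-fold (adjusted p = 0.0405 from limma). The call was lost in 11 of the 16 other settings, including the loss of any array except control replicate 3 (adjusted p from 0.0769 to 0.0988), and centring each array on its yeast median reduced the difference to 0.15 (adjusted p = 0.0734).

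JEN1 encodes the plasma membrane permease for lactate and pyruvate (YKL217W, chr11:22234-24084, plus strand). It read 5.82, 5.85, 6.05 and 5.84 in control and 5.75 and 5.69 in eEF1A cells. The eEF1A values were the lowest of the 6 by a narrow margin, and control replicate 3 stood apart from the other controls. The difference of -0.17 ± 0.07 (SE) missed the threshold (limma, adjusted p = 0.0959). With each array centred on its median it was -0.23 and passed (adjusted p = 0.0166 from limma).

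**Figure D2:**
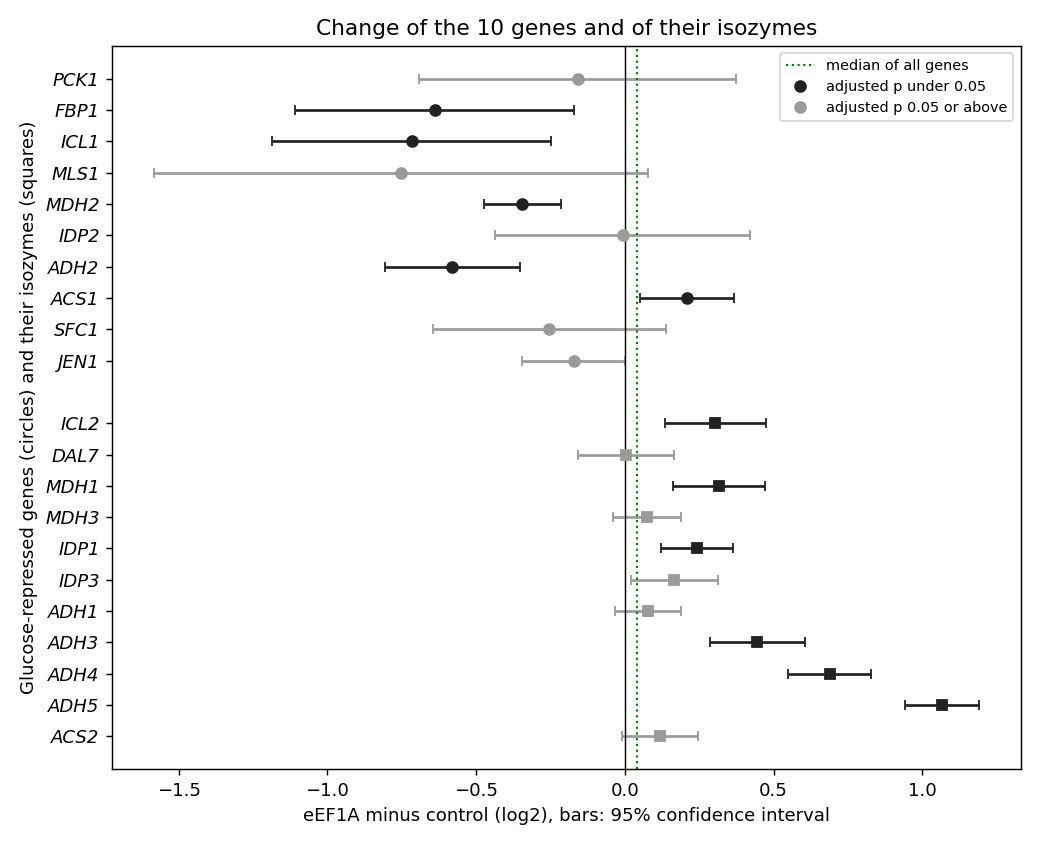
Difference between eEF1A and control cells on the log2 scale (horizontal axis) with its 95% confidence interval from limma, for the 10 glucose-repressed genes (circles) and 11 isozymes (squares), black where the adjusted p was under 0.05. The 4 falls lie between -0.72 and -0.34 among the glucose-repressed genes, while the 6 called isozymes rose by 0.24 to 1.07.

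The control arrays spread more in most of these genes than in genes of a like signal. Control replicate 3 gave the highest control signal for all 10 of them, against 47.3% of all genes, and control replicate 2 the lowest for 7 of 10, against 34.3%. Some related lists shared this pattern and others did not. The same arrays were highest and lowest for all 5 carnitine shuttle genes, and each for 14 of 19 respiration genes. By contrast, control replicate 3 was highest for 1 of 6 other sugar genes that glucose represses. It was highest for 2 of 6 other genes of citrate and glyoxylate metabolism. The value of control replicate 3 was above the mean of the other 3 controls by 1.11 for MLS1, 0.64 for PCK1, 0.59 for ICL1 and 0.49 for SFC1. The lowest such gap was 0.09, for MDH2. Its median was 0.38 over the 10 genes and 0.04 over all genes.

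The size of that spread was set against genes of a like signal, those whose control mean lay within 0.5 of the gene's own. For ICL1 the control SD was 0.33, 5.24 times the median SD of such genes, and for MLS1 it was 0.57, 5.73 times. PCK1 (5.17 times), IDP2 (3.65 times) and SFC1 (3.21 times) stood apart in the same way. The SD of 7 of the 10 genes was larger than that of over 90% of genes of like signal. MDH2, ACS1 and JEN1 were the exceptions, with SDs of 1.35, 1.60 and 1.08 times the median.

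Some of the 10 genes also had a wide gap between the 2 eEF1A arrays. Replicate 2 was higher than replicate 3 for 9 of the 10, all but SFC1. This is near the 82.2% of all genes, and it held for all 11 isozymes. The gap was 0.90 for MLS1, 0.75 for FBP1, 0.55 for IDP2 and 0.54 for PCK1. It was only 0.06 for JEN1, 0.05 for MDH2, 0.01 for ACS1 and -0.03 for SFC1. Over the 10 genes its median was 0.35, and over all genes 0.11. For PCK1, FBP1, MLS1 and IDP2 this gap was larger in size than the difference between the group means, and FBP1 is among the genes called lower.

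**Figure D3:**
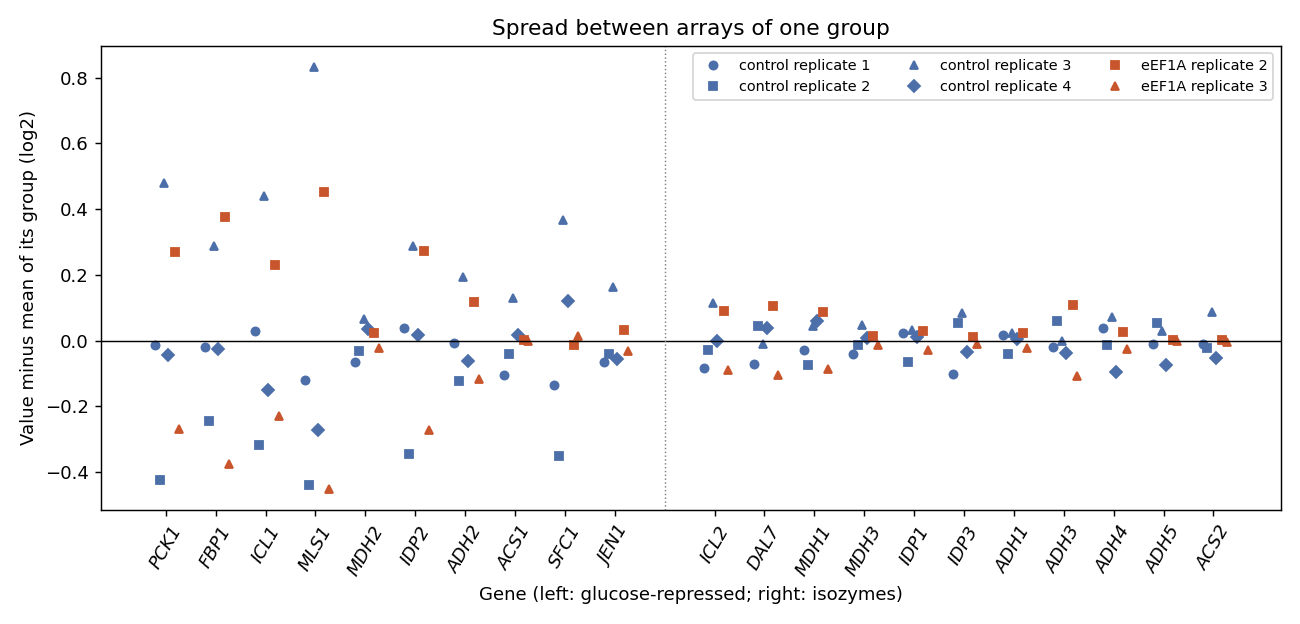
Value of each array minus the mean of its own group on the log2 scale (vertical axis) for the 10 glucose-repressed genes (left of the dotted line) and their 11 isozymes (right), with control arrays in blue and eEF1A arrays in orange. Control replicate 3 (blue triangle) lies highest of the controls in all 10 glucose-repressed genes. Control SDs run from 0.06 to 0.57 among these genes and from 0.03 to 0.08 among the isozymes. MDH2, at 0.06, lies within the range of the isozymes.

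Most of the 10 genes have isozymes that act in another compartment or on another carbon source, and these rose or did not pass the test. Of 11 isozymes, 6 rose, none fell and 5 did not pass (limma, adjusted p under 0.05). Among all genes 27.5% were higher and 15.4% lower. The median difference of the isozymes was 0.24. Under the alternatives 3 to 7 rose and none fell, with 3 under the replicate block, 4 with only arrays numbered 2 and 3 and 5 without eEF1A replicate 2. The clearest were alcohol dehydrogenases. ADH5 read 10.27 to 10.40 in control and 11.41 and 11.41 in eEF1A cells, a rise of 1.07 ± 0.05 (SE, adjusted p = 4.88e-06 from limma).

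ADH4 rose by 0.69 ± 0.06 (SE) and ADH3, the mitochondrial enzyme, by 0.45 ± 0.07. ADH1, the main enzyme that makes ethanol during fermentation, read 14.26 to 14.32 in control and 14.40 and 14.36 in eEF1A cells and did not pass (adjusted p = 0.230 from limma). Within each array, ADH2 minus ADH5 was -3.02 to -2.68 in control and -4.38 and -4.61 in eEF1A cells. ADH2 thus lost ground to ADH5 by 1.65 on the log2 scale, of which the fall of ADH2 made up the smaller part.

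The mitochondrial malate dehydrogenase MDH1 rose by 0.32 ± 0.07 (SE, adjusted p = 0.00643 from limma), while the peroxisomal MDH3 read 10.62 to 10.71 in control and 10.75 and 10.73 in eEF1A cells (adjusted p = 0.268). MDH2 minus MDH1 was 1.40 to 1.48 in control and 0.71 and 0.84 in eEF1A cells, and MDH2 minus MDH3 was 1.29 to 1.35 and then 0.91 and 0.89. Both pairs separated the groups by several times the spread among the controls.

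ICL2, a mitochondrial protein related to ICL1 that acts on methylisocitrate, rose by 0.30 ± 0.07 (SE, adjusted p = 0.0116 from limma). ICL1 minus ICL2 lay between -0.32 and 0.29 on the control arrays and was -0.91 and -1.20 on the eEF1A arrays. The call for ICL2 was lost without eEF1A replicate 2. DAL7, a malate synthase of allantoin use, read 7.15 to 7.27 and then 7.34 and 7.12 (adjusted p = 0.969 from limma).

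IDP1, the mitochondrial NADP-dependent isocitrate dehydrogenase, rose by 0.24 ± 0.05 (SE, adjusted p = 0.00703 from limma). The peroxisomal IDP3 (0.17 ± 0.06, adjusted p = 0.0662) and ACS2, the acetyl-CoA synthetase used during growth on glucose (0.12 ± 0.06, adjusted p = 0.12), did not pass. Of 11 pairs of a glucose-repressed gene and an isozyme, 8 had no overlap between the groups, and in 7 of these the glucose-repressed gene lost ground. The exception was ACS1 against ACS2, whose ratio was higher by 0.09 in eEF1A cells. Those 7 pairs involve only ADH2, MDH2 and ICL1, which were already called lower. Among single genes 57.2% had no overlap, and the share among pairs of genes was not computed. The ratios were not tested, as 4 arrays against 2 cannot give an exact permutation p below 0.0667.

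Of 20 regulators of glucose repression measured, 6 rose and 4 fell (limma, adjusted p under 0.05), with a median of 0.14, shares near the 27.5% and 15.4% of all genes. The largest change was in MIG2, a repressor that is itself made in glucose, which read 11.04 to 11.18 in control and 9.69 and 9.36 in eEF1A cells. MIG2 fell by 1.57 ± 0.09 (SE, adjusted p = 9.85e-06 from limma). The other 3 that fell were NRG2, MIG3 and ELM1, and they are named here after their values were seen.

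Among the regulators that rose, NRG1, a repressor of glucose-repressed genes, rose by 0.66 ± 0.11 (SE), SIP4, a zinc cluster activator that binds the promoters of gluconeogenic genes, by 0.56 ± 0.08, and SIP2, a beta subunit of the Snf1 kinase, by 0.53 ± 0.08. HXK2, the hexokinase that takes part in repression, and SNF4, the Snf1 gamma subunit, did not pass (adjusted p = 0.748 and 0.725 from limma). The direct activators, named for their role after their values were seen, did not pass either. CAT8 read 5.57 to 5.75 in control and 5.61 and 5.50 in eEF1A cells (adjusted p = 0.166). ADR1 read 6.75 to 6.90 in control and 7.76 and 6.91 in eEF1A cells (adjusted p = 0.0664), so that its 2 eEF1A arrays differed from each other.

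The GID complex is the ubiquitin ligase that, on return to glucose, marks the FBP1, PCK1, ICL1 and MDH2 enzymes for destruction. Of its 8 genes 6 rose, 1 fell and 1 did not pass the test, beside 27.5% higher and 15.4% lower among all genes. The median was 0.50. FYV10 read 6.16 to 6.52 in control and 7.30 and 7.19 in eEF1A cells and rose by 0.87 ± 0.09 (SE, adjusted p = 0.000267 from limma). VID30 rose by 0.70 ± 0.12, GID8 by 0.63 ± 0.07 and UBC8, the ubiquitin-conjugating enzyme, by 0.57 ± 0.07. The gene that fell, singled out after its value was seen, was VID24, the subunit that recognises these enzymes. It read 10.29 to 10.65 in control and 9.99 and 9.78 in eEF1A cells, a fall of 0.52 ± 0.11 (SE, adjusted p = 0.00546 from limma). GID7 did not pass (adjusted p = 0.160).

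Some of the enzymes that flank the glyoxylate genes rose. Of 6 genes of citrate and glyoxylate metabolism, 3 rose and none fell, beside 27.5% and 15.4% of all genes, and the median was 0.43. CIT2, the peroxisomal citrate synthase of the glyoxylate cycle, read 10.61 to 10.88 in control and 11.90 and 11.79 in eEF1A cells, a rise of 1.13 ± 0.08 (SE, adjusted p = 3.22e-05 from limma). CIT1 rose by 0.84 ± 0.09 and the aconitase ACO1 by 0.70 ± 0.06, while AGX1 did not pass (adjusted p = 0.943).

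Further lists held other routes into nonfermentable carbon. Their counts are read beside the 27.5% of all genes called higher and the 15.4% called lower. For acetaldehyde and acetate 2 of 7 genes rose, near the share of all genes, and none fell. ATO2 rose by 0.45 ± 0.07 (SE) and ACH1 by 0.24 ± 0.06. The aldehyde dehydrogenases ALD5 and ALD6 did not pass (adjusted p = 0.505 and 0.114 from limma). For lactate and glycerol only DLD3 of 7 rose, by 0.51 ± 0.06, and none fell. With each array centred on its median the 2 lists held 2 and 1 lower genes. Of 5 genes of the carnitine shuttle, which carries acetyl groups, AGP2 rose by 0.71 ± 0.15 and CAT2 by 0.34 ± 0.07.

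Of 11 genes of fatty acid oxidation 4 rose and 1 fell, beside 27.5% and 15.4% of all genes. PXA1 and PXA2, the 2 parts of the peroxisomal fatty acid transporter, rose by 0.77 ± 0.13 and 0.73 ± 0.07 (SE), and FAA2 by 0.59 ± 0.12. The fall was that of CTA1, the peroxisomal catalase, by 0.42 ± 0.10 (adjusted p = 0.00943 from limma). TES1 and ECI1 did not pass (adjusted p = 0.930 and 0.412).

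Of 11 genes for the steps that run one way between glucose and pyruvate 8 rose and 2 fell. The shares of all genes were 27.5% and 15.4%, and the median of the list was 0.31. GLK1 read 8.79 to 9.02 in control and 10.79 and 10.35 in eEF1A cells, a rise of 1.68 ± 0.12 (SE, adjusted p = 2.84e-05 from limma). HXK1 rose by 1.41 ± 0.25. Both encode glucose-phosphorylating enzymes whose genes are themselves repressed by glucose. PFK27, which makes the activator of glycolysis fructose-2,6-bisphosphate, fell by 1.10 ± 0.10 (adjusted p = 0.000108).

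PYC1, a pyruvate carboxylase that feeds oxaloacetate to gluconeogenesis, read 11.88, 11.66, 12.22 and 11.98 in control and 11.30 and 11.22 in eEF1A cells. Control replicate 3 was the highest and replicate 2 the lowest of its controls, and it fell by 0.67 ± 0.13 (SE, adjusted p = 0.00463 from limma). The glycolytic pyruvate kinase CDC19 did not pass (adjusted p = 0.80).

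Among 6 other sugar genes that glucose represses, 4 rose and none fell, beside 27.5% and 15.4% of all genes. The median was 0.35. GAL3, GAL10, GAL7 and GAL2 rose by 0.45 ± 0.11, 0.41 ± 0.11, 0.41 ± 0.11 and 0.28 ± 0.07 (SE). Their control signals, from 5.64 to 6.13, lay close to the background level. A second quantile normalization left 1 of these calls, as did array weights and leaving out eEF1A replicate 2. SUC2, the invertase gene often used as a measure of glucose repression, read 9.31 to 9.55 in control and 9.46 and 9.30 in eEF1A cells and did not pass (adjusted p = 0.484 from limma), nor did GAL1 (adjusted p = 0.202).

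Of 19 respiration genes 7 rose and 3 fell, beside 27.5% and 15.4% of all genes, and their median was 0.09. IDH2 and IDH1, the subunits of the mitochondrial NAD-dependent isocitrate dehydrogenase, rose by 1.09 ± 0.06 and 1.01 ± 0.07 (SE), NDI1 by 0.71 ± 0.08 and HAP4, an activator of respiration genes, by 0.36 ± 0.09. The 3 that fell were COX4, CYC1 and ATP2, named after their values were seen, and without eEF1A replicate 3 none of the 3 passed. ATP1 and LPD1 did not pass (adjusted p = 0.543 and 0.528 from limma).

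Genes known to rise after the diauxic shift, when glucose is used up, gave a mixed picture too. Of 14 such genes 7 rose and 1 (SSA3, named after its value was seen) fell, beside 27.5% and 15.4% of all genes. The median was 0.28. SPI1 rose by 1.38 ± 0.07, YGP1 by 1.35 ± 0.11, SNO1 by 0.66 ± 0.06 and CTT1 by 0.61 ± 0.12 (SE). HSP12, a small heat shock protein gene, read 11.15 to 12.45 in control and 11.96 and 9.94 in eEF1A cells and did not pass (adjusted p = 0.318 from limma), nor did HSP26 (adjusted p = 0.297). Control replicate 3 was the highest control for 11 of the 14 genes and replicate 2 the lowest for 13. Without eEF1A replicate 2 the counts were 6 higher and 4 lower.

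**Figure D4:**
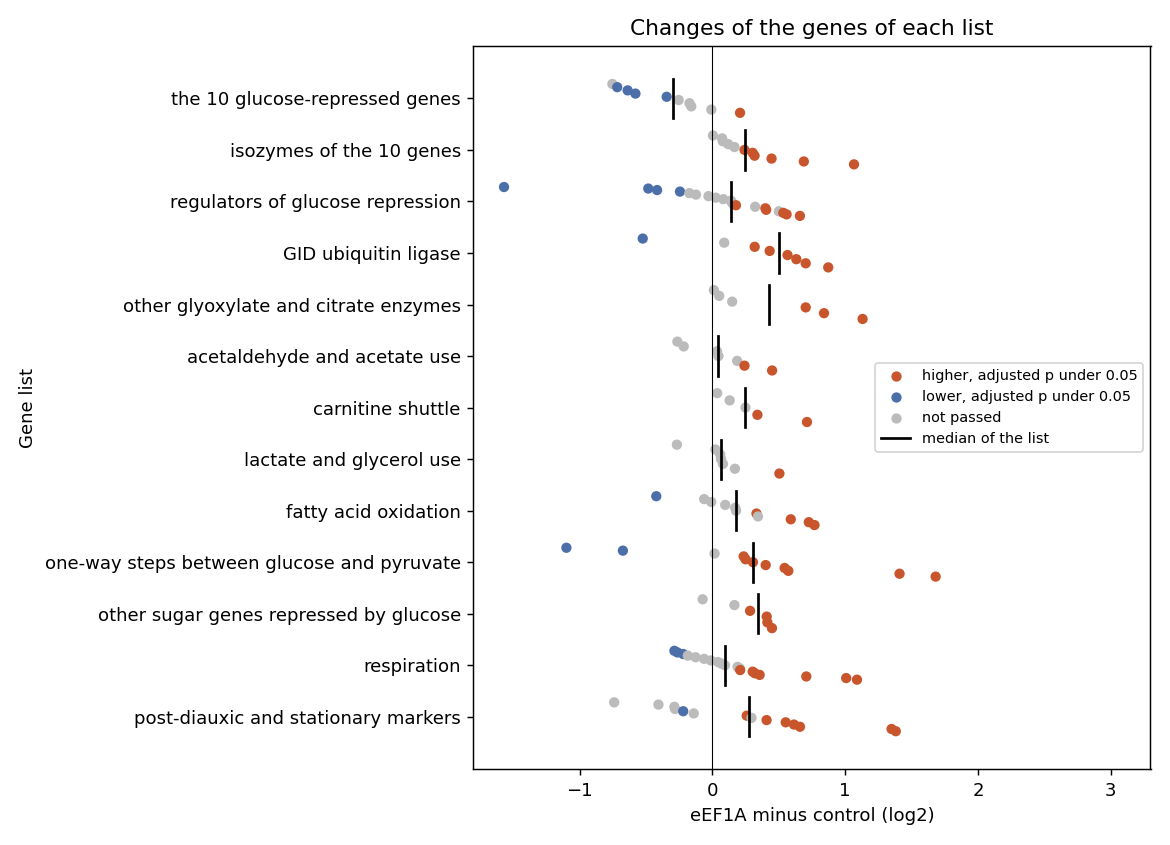
Difference between eEF1A and control cells on the log2 scale (horizontal axis) for each gene of the 13 lists (vertical axis), with called rises in orange, called falls in blue, other genes in grey and a black bar at each list's median. The 10 glucose-repressed genes have a median of -0.30, while the medians of the other 12 lists lie between 0.05 and 0.50.

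No array was labelled as coming from cells without glucose, and glucose was not measured in these data, so the signals of the 10 genes have no reference for full derepression. What the arrays give is their order: for ICL1, ADH2, MDH2, FBP1 and JEN1 both eEF1A arrays lay under all 4 controls, and for PCK1, MLS1, IDP2 and SFC1 they lay among or beside them. Only ACS1 lay above.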

How the data were processed

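The authors hybridised labelled RNA of each sample to an Affymetrix Yeast 2.0 array, ran RMA normalization in affylmGUI and deposited the resulting log2 signals of 10928 probe sets. Annotation of the chip came with them, which is no measurement, as did sheets of the authors' own comparison (fold changes, B-statistics and p-values), which were not used. RMA forces 1 distribution on the 6 arrays, so a change shared by most transcripts could be lost or altered in size. The median yeast signal still ran from 9.00 (control replicate 2) to 9.12 (eEF1A replicate 2).

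Group was the only term of a limma fit (version 3.58.1, R 4.3.3) to these log2 signals over 5810 yeast probe sets, with 4 residual and 4.09 prior degrees of freedom. The probe set with the highest mean stood for each gene, and p-values were adjusted by Benjamini-Hochberg over 5726 genes. In simulated data with the spread of these arrays, the fit of eEF1A minus control found 54% of 50 genes changed by 0.3, 90% of those changed by 0.5 and 98% of those changed by 1 on the log2 scale, and called 10 unchanged genes. The changed genes were drawn at random with independent noise, while most of the 10 members spread more than genes of like signal. These shares are therefore not those for the 10 genes. The number of arrays limits the precision.

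Each of the 10 probe sets has 11 probes on its own transcript and matches no other yeast transcript in the annotation. Genes are named by a rule: the 10 members, 11 isozymes, and of each other list at most 4 called genes by size of change plus at most 2 uncalled genes by mean signal, with exceptions marked, and 1 gene that the rule names is not reported here. Members and lists were chosen with earlier results of these data known. Alternatives were other normalizations, moderation, filters, probe set averages, a replicate block and each array left out.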

Additional observations from a re-analysis of the deposited data

Results flagged for a closer look

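Dixon's test of the highest or lowest of the 4 control arrays was made for 87 named genes and marked 5, or 5.75%, where chance marks about 1 in 20. For JEN1, the lactate permease, control replicate 3 stood apart at 6.05, with the other controls between 5.82 and 5.85. For PXA1 control replicate 2 was low at 6.75, and for HSP26 the same array was low at 8.35. For CDC19 control replicate 1 was high at 14.41, and for GAL3 control replicate 4 was high at 5.95.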

How the results depend on the processing

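MDH2 and ADH2 kept their fall past the threshold under all 16 alternatives fitted. ICL1 lost it under 2, FBP1 under 7 and ACS1 under 11, while JEN1 gained one under 2 and MLS1 under 1. A B-statistic above 1.5 left 0 of the 10 genes on either side, and 348 higher and 144 lower of all genes. The number of the 10 that rose went from 1 to 0 with all probe sets of the chip in the moderation, a second quantile normalization, median centring, array weights, the replicate block and only arrays numbered 2 and 3, and was 0 to 1 with each array left out in turn. The number that fell went from 4 to 2 with array weights and was 2 to 4 with each array left out, the lowest without eEF1A replicate 3. Among all genes, a second quantile normalization gave 1491 lower genes and median centring 1451, since they move the median difference of all genes from 0.04 to -0.01 and -0.02, and array weights gave 562. With only arrays numbered 2 and 3 there were 853 higher and 461 lower genes. Leaving out each array gave 1189 to 1857 higher and 623 to 1234 lower genes.

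The labels share replicate numbers 2 and 3 across the groups, without saying that they pair cultures. Deviations of same-numbered arrays from their group means correlated by -0.01 and -0.04 across genes, and those of differently numbered arrays by 0.01 and 0.04. The deviations of 2 eEF1A arrays mirror each other, so these values cannot decide whether cultures were paired. With the number as a replicate block, 773 genes were higher and 436 lower, none of the 10 rose and 5 fell, with MLS1 at -0.95 and an adjusted p of 2.78e-10. The moderation of that fit gave an infinite number of prior degrees of freedom, so this p leaves out the spread of MLS1 itself, and the unblocked fit to only these arrays gave the same difference with an adjusted p of 0.119.

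The sign of IDP2 turned with array weights (0.0047), the replicate block and only arrays numbered 2 and 3 (0.021 with either), and without control replicate 1 (0.0054), control replicate 3 (0.09) or eEF1A replicate 3 (0.27), and that of PCK1 turned without control replicate 3 (0.0010) and without eEF1A replicate 3 (0.11), none of them past the threshold. With each array left out, IDP2 ranged from -0.28 to 0.27 and PCK1 from -0.43 to 0.11. The cause of these changes was not tested. FBP1, MLS1, SFC1 and JEN1 lay close to the background level, and 2 eEF1A arrays give little hold on the spread of that group.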
